A study of Mus musculus with 8 samples.

Results

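The expression profile of 9 genes of the epithelial tight junction was compared between the central cornea and the limbus of the mouse. The 9 genes encode the claudins Cldn1, Cldn4, Cldn7 and Cldn23, the membrane proteins occludin (Ocln) and junctional adhesion molecule A (F11r), and the plaque proteins ZO-1 (Tjp1), ZO-3 (Tjp3) and cingulin (Cgn). They were chosen by symbol among the 23420 rows of the deposited expression table that carry a gene name, and all 9 were found, each in 1 row. All animals were wild-type C57BL/6J mice, 8 weeks old. Corneal buttons and limbal rims were dissected from the same eyes, the tissue of each kind was pooled, and total RNA was sequenced. By the paper's account, the rims were also cut free of the conjunctiva. The labels list 4 samples for each tissue, but the deposited table holds 1 mean per gene over both tissues, from which 1 library per tissue was recovered. Neither tissue therefore has a replicate here, no test was possible, and a difference between them has no replicate check. The intervals given are exact 95% intervals (Clopper-Pearson for ratios, Poisson for levels) and cover counting error only.

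Tight junctions seal the space between neighbouring epithelial cells near their apical side. Claudins form the strands of the seal and decide which ions and molecules pass, whereas occludin and F11r lie in or beside the strands. The ZO proteins and cingulin form a plaque under the membrane that ties the strands to the actin cytoskeleton. In the corneal epithelium the seal is made by the superficial cells and keeps tear fluid and microbes out of the stroma. The limbus is the rim between the cornea and the conjunctiva, and it holds the basal stem cells that renew the corneal epithelium as well as vessels, pigment cells and conjunctival cells.

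Promoter sequences are shown for 4 of the genes, because these span the range of the tissue difference described next: Cldn1 and Cldn4 had the highest limbal ratios and Ocln and Tjp1 were higher in the cornea. Each sequence is the reference of RefSeq (GRCm38.p6), covers 250 bases before and 50 bases after an annotated transcription start, and is written 5′ to 3′ on the strand of the gene. Capitals mark 2 motifs. The E-box CAGGTG, which reads CACCTG when it lies on the other strand, is bound by the repressors Snai1 and Zeb1. The GC box GGGCGG, which reads CCGCCC when it lies on the other strand, is bound by factors of the Sp family. The windows are chr16:26371790-26372089 (minus strand) for Cldn1, chr5:134946885-134947184 (minus strand) for Cldn4, chr13:100552449-100552748 (minus strand) for the downstream of 2 Ocln starts, and chr7:65371195-65371494 (minus strand) for Tjp1, whose start in RefSeq lies inside the longer gene of the GENCODE annotation.
Cldn1: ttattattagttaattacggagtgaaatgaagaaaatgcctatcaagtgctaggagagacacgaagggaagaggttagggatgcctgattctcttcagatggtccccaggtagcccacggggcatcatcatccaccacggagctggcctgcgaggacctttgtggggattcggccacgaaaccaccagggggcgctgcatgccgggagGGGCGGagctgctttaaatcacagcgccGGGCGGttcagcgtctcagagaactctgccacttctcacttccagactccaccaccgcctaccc
Cldn4: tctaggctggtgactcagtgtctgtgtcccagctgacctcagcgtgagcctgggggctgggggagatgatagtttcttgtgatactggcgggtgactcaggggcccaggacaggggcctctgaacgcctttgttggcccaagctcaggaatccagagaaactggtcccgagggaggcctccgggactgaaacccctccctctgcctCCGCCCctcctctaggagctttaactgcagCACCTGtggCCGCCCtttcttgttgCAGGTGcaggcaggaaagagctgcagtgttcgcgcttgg
Ocln: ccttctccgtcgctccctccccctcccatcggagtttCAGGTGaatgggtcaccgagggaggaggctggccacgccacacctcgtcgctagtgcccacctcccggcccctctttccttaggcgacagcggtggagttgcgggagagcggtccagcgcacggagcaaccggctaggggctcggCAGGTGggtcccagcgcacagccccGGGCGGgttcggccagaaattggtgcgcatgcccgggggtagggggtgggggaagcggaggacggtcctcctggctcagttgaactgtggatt
Tjp1: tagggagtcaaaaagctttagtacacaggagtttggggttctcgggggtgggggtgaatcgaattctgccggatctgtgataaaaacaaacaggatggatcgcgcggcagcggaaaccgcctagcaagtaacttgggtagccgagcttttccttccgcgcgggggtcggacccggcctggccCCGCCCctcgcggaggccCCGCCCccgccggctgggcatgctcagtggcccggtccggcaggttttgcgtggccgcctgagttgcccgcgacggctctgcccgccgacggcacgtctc

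The Cldn4 window held E-boxes on both sides of the start, 14 bases before it and at base 12 of the transcript, with GC boxes 44 and 5 bases before it. The Ocln window held E-boxes 213 and 68 bases before the start and a GC box 43 bases before it. The Cldn1 window (GC boxes 42 and 14 bases before the start) and the Tjp1 window (68 and 50 bases before) held no E-box. RefSeq promoters were matched for 8 of the 9 genes, in 11 windows, with Cldn23 unmatched. An E-box stood in 7 of the 11 windows, against 20.2% of all 32851 mouse promoter windows of this length. These windows belong to 5 genes (Cldn4, Cldn7, Ocln, F11r and Tjp3), and the Ocln windows overlap and share 1 site. A GC box stood in 8 of the 11 windows, against 35.7% of all windows, in every matched gene but Tjp3, and the Cgn window alone held 6 of them. The Grainyhead-type motif AACCGGTT (0.146% of all windows) and the TATA box TATAAA (13.6%) were found, on either strand, in 0 of the 8 genes.

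The libraries held 26104317 (cornea) and 21182025 (limbus) reads on named genes. Below, reads are the recovered whole numbers, normalized reads are those reads divided by the size factor of the deposited table (cornea 1.03, limbus 0.967), and ratios are log2 of limbus over cornea on normalized reads. Markers of several cell types also differed between the tissues, and the values of these lists stand after those of the junction genes. Scaling the libraries to the median of the epithelial marker list in place of the size factors adds 0.60 to every ratio, so each ratio between -0.60 and 0 given below is above 0 under that scaling. In such bulk tissue, fewer cells of a type and less RNA per cell cannot be told apart.

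Across the 9 genes the tissues differed moderately, with 1 exception. Cldn1 was 3.03-fold higher in the limbus, whereas the other 8 genes were at most 1.52-fold apart, from Cldn4 at 1.38-fold higher in the limbus to Tjp1 at 1.52-fold higher in the cornea. Thus 1 of 9 genes was at least 2-fold higher in the limbus and 0 of 9 at least 2-fold higher in the cornea, where 18.0% and 8.88% of all 13932 genes with a mean of at least 10 normalized reads were. Beyond counting error, 5 genes were higher in the limbus (Cldn1, Cldn4, Tjp3, Cldn7 and Cldn23) and 3 in the cornea (Ocln and Cgn, which turn under the epithelial scaling, and Tjp1, which comes to equality under it), with F11r in neither set. At this depth most genes passed that limit, 36.0% of all genes for the limbus and 40.5% for the cornea, so that such a call is common here. The median ratio of the 9 genes was 0.26, and that of all genes was -0.04.

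**Figure D1:**
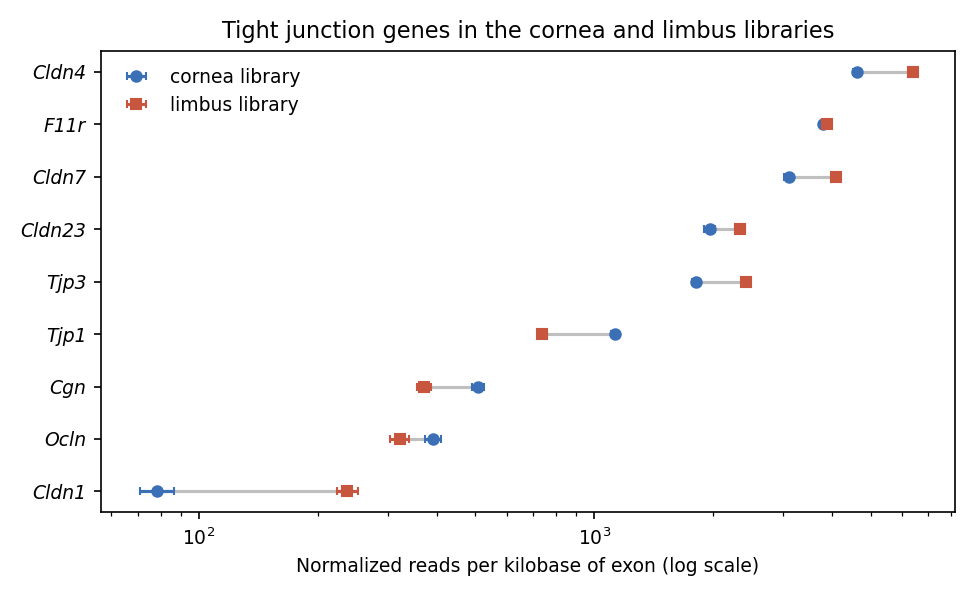
Level of the 9 genes in the cornea and the limbus, in normalized reads per kilobase of exon on a log axis, with exact 95% Poisson intervals and 1 library per tissue. Cldn4 has the highest level in both tissues (4620 and 6392) and Cldn1 the lowest (78.3 and 237).

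The claudins came first, since they make the strands. All 4 were higher in the limbus, and their 19055 corneal and 24215 limbal reads in sum gave a ratio of 0.44 (0.41 to 0.47).

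Cldn1, a barrier-forming claudin without which the skin loses water, is annotated at chr16:26356642-26371841 (minus strand, GRCm38). It had 392 corneal and 1112 limbal reads, or 379 and 1150 normalized reads. The ratio was 1.60 (1.43 to 1.77), the highest of the 9 genes. Its level per kilobase was the lowest of the 9 in both tissues.

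Cldn4, a barrier-forming claudin and receptor for a clostridial enterotoxin, lies at chr5:134945119-134946934 (minus strand). Its 8673 corneal and 11229 limbal reads (8390 and 11608 normalized) gave a ratio of 0.47 (0.43 to 0.51). Cldn7, which also binds the adhesion protein EpCAM on the lateral membrane, lies at chr11:69964779-69967885 (plus strand). It had 6250 corneal and 7697 limbal reads (6046 and 7957 normalized), a ratio of 0.40 (0.35 to 0.44). These 2 abundant claudins were thus shifted towards the limbus to a nearly equal degree. The log2 difference between their ratios was 0.07 (0.01 to 0.14).

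Cldn23, a claudin known from differentiated cells of the gut lining, lies at chr8:35824712-35826559 (minus strand). It had 3740 corneal and 4177 limbal reads (3618 and 4318 normalized), and its ratio of 0.26 (0.19 to 0.32) was the smallest of the claudins. Its ratio lay below that of Cldn7 by 0.14 (0.06 to 0.22). Cldn1 in turn exceeded Cldn4 by 1.13 (0.96 to 1.31), so the step between Cldn1 and the other claudins was the largest step in the order of the 9 ratios.

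The membrane proteins beside the strands did not share that direction. F11r, an immunoglobulin-type adhesion molecule that binds ZO-1 and the polarity protein Par3, lies at chr1:171437535-171464603 (plus strand). It had 10451 corneal and 9973 limbal reads (10110 and 10310 normalized), and its ratio of 0.03 (-0.01 to 0.07) did not differ from 0 beyond counting error. Scaled by trimmed means of M-values (0.05), total reads (0.23) or the epithelial markers (0.63), F11r lay above 0 beyond counting error. Ocln, a MARVEL protein with 4 transmembrane segments that contributes to the stability of the strands, lies at chr13:100496507-100552718 (minus strand). It had 1706 corneal and 1314 limbal reads (1650 and 1358 normalized), a ratio of -0.28 (-0.39 to -0.18). Occludin was therefore 1.21-fold higher in the cornea while the claudins were higher in the limbus. The ratio of Cldn7 lay above that of Ocln by 0.68 (0.56 to 0.79) and that of Cldn1 by 1.88 (1.68 to 2.08), values that do not depend on how the libraries are scaled.

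The plaque scaffolds were split. Tjp3, the ZO protein found mainly in epithelia, lies at chr10:81273207-81291581 (minus strand). It had 6951 corneal and 8711 limbal reads (6724 and 9005 normalized), a ratio of 0.42 (0.38 to 0.47). Its locus overlaps the coding gene Apba3 on the opposite strand, and whether reads were counted by strand is not given in the sources used here. Tjp1, the ZO protein present in most epithelia and also at endothelial junctions, lies at chr7:65296165-65527781 (minus strand) and overlaps 3 short annotated loci (Gm44792, Gm44794 and Gm44795). It had 9083 corneal and 5583 limbal reads (8787 and 5771 normalized), and its ratio of -0.61 (-0.65 to -0.56) was the lowest of the 9. Under the epithelial scaling Tjp1 stood at -0.0051, which is no longer beyond counting error. The ratio of Tjp3 exceeded that of Tjp1 by 1.03 (0.96 to 1.09), a value free of scaling.

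Cgn, a plaque protein that binds ZO-1 and links the junction to myosin, lies at chr3:94760069-94786492 (minus strand). Its 3163 corneal and 2159 limbal reads (3060 and 2232 normalized) gave a ratio of -0.46 (-0.53 to -0.38), close to that of its partner Tjp1 but 0.15 (0.06 to 0.24) above it. Over the 3 scaffolds together, 19197 corneal and 16453 limbal reads gave a ratio of -0.13 (-0.16 to -0.10). The reads of all 9 genes made up 0.193% of the corneal and 0.245% of the limbal library.

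**Figure D2:**
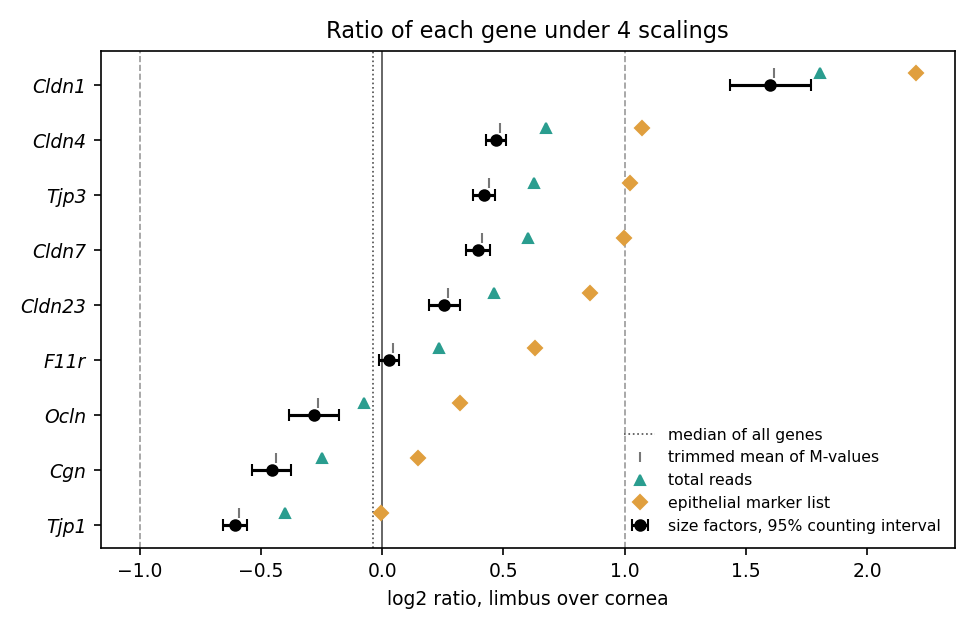
Log2 ratio of limbus over cornea for the 9 genes, 1 library per tissue, with the size factors (black, with exact 95% intervals of counting error) and under 3 other scalings (trimmed mean of M-values, total reads and the epithelial marker list), a dotted line at the median of all genes and dashed lines at 2-fold. With the size factors Cldn1 alone lies past 2-fold at 1.60 and Ocln, Cgn and Tjp1 lie below 0, and with the epithelial list Ocln and Cgn lie above 0.

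In the order of the 9 ratios, 2 pairs of neighbours did not differ beyond counting error. Cldn4 and Tjp3 differed by 0.05 (-0.01 to 0.11), and Tjp3 and Cldn7 by 0.03 (-0.04 to 0.09). The intervals of the remaining steps did not include 0, with steps of 0.23 (0.15 to 0.30) from Cldn23 to F11r, 0.31 (0.20 to 0.42) from F11r to Ocln and 0.17 (0.04 to 0.31) from Ocln to Cgn. Cldn4 and Cldn7, which are not neighbours in this order, differed by 0.07 (0.01 to 0.14).

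**Figure D3:**
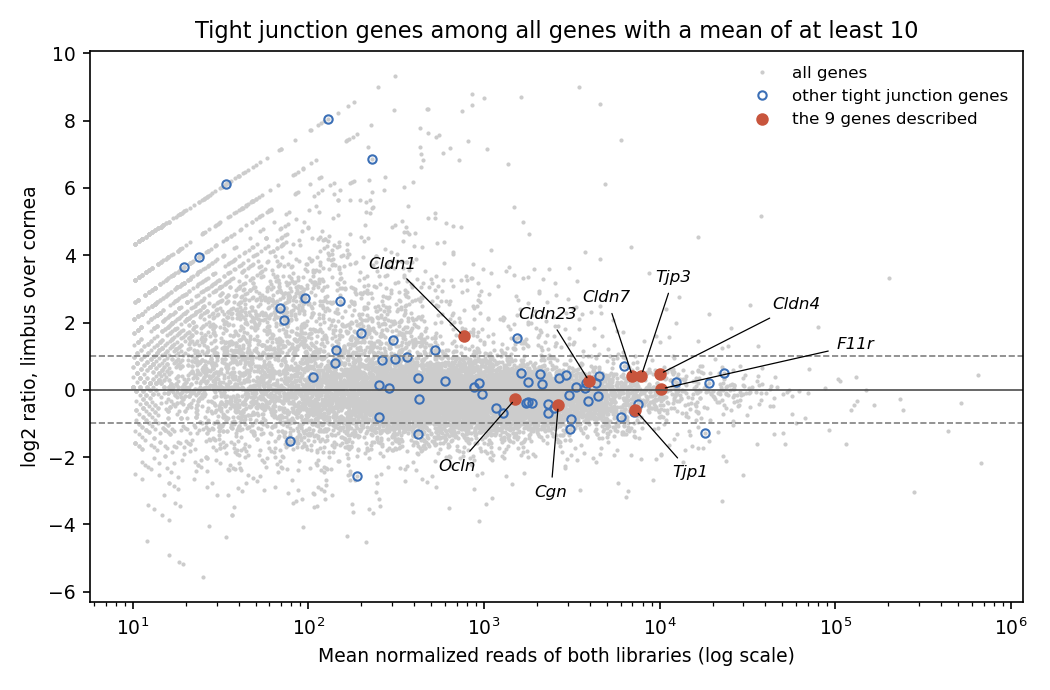
Log2 ratio of limbus over cornea against the mean normalized reads (log axis) for genes with a mean of at least 10 and no library at 0, 1 library per tissue, dashed lines at 2-fold. The 9 genes (filled red) lie between -0.61 and 1.60, and the other tight junction genes (open blue circles) spread from -2.55 for Cldn17 to 8.06 for Esam.

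Levels were compared between genes as normalized reads per kilobase of annotated exon. In the cornea the order was Cldn4 at 4620 (4523 to 4718), F11r at 3796 (3724 to 3870), Cldn7 at 3104 (3027 to 3182), Cldn23 at 1958 (1896 to 2022) and Tjp3 at 1810 (1768 to 1854). Tjp1 at 1125, Cgn at 508, Ocln at 391 and Cldn1 at 78.3 followed, and no neighbours in this order had overlapping intervals. The corneal junction transcripts were thus led by Cldn4, F11r and Cldn7, with occludin and Cldn1 far below them.

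In the limbus the order per kilobase was Cldn4 at 6392, Cldn7 at 4085, F11r at 3871, Tjp3 at 2425 (2374 to 2476) and Cldn23 at 2337 (2266 to 2409), followed by Tjp1 at 739, Cgn at 371, Ocln at 322 and Cldn1 at 237 (224 to 252). The intervals of Tjp3 and Cldn23 overlapped and those of the other neighbours did not. The order differed from that of the cornea by an exchange of Cldn7 with F11r and of Tjp3 with Cldn23, and both exchanges are absent with the length of the longest transcript in place of all exons. The level of Cldn4 was 59.0 times that of Cldn1 in the cornea and 26.9 times in the limbus. Tjp3 over Tjp1 was 1.61 and 3.28, and Cldn7 over Ocln was 7.94 and 12.7. With that length, 5 of the 9 genes kept their rank in the cornea and 9 of 9 in the limbus.

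The make-up of the claudin family was compared as each gene's part of the summed reads per kilobase of 16 claudins. Cldn4 made up 42.3% in the cornea and 41.0% in the limbus, Cldn7 28.4% and 26.2%, and Cldn23 17.9% and 15%. The rank of these 3 was the same in both tissues. Cldn3, a barrier-forming claudin that shares the enterotoxin receptor function of Cldn4, went from 5.78% to 11.7%, and Cldn1 from 0.717% to 1.52%. Cldn5, the claudin of blood vessel endothelium, went from 0.025% to 2.06%. By contrast Cldn17, a claudin known to form anion channels, went from 2.51% to 0.30%, and Cldn12 from 1.30% to 0.365%.

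**Figure D4:**
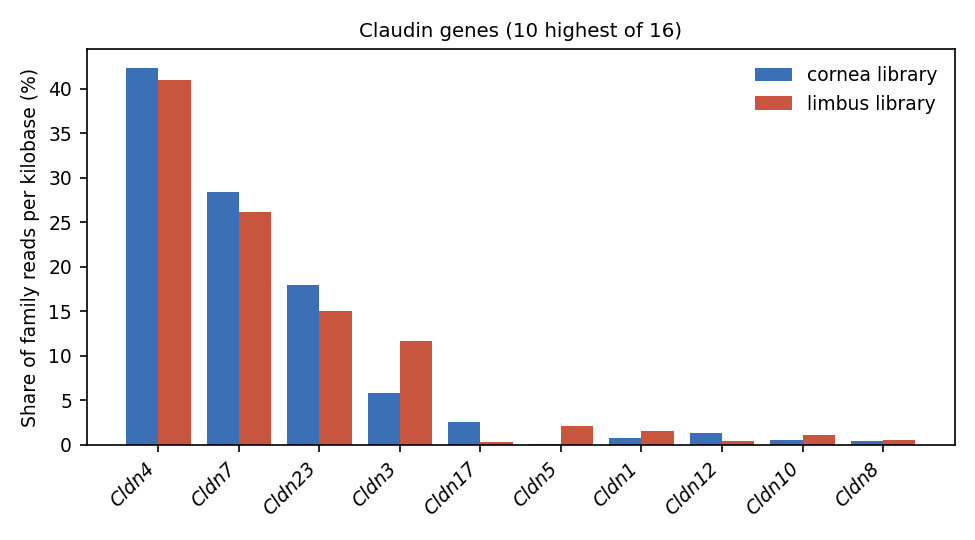
Part of each gene in the summed normalized reads per kilobase of its family, in percent, for the 10 highest of 16 claudins in the cornea and the limbus, 1 library per tissue. Cldn4, Cldn7 and Cldn23 lead in both tissues, and Cldn3 goes from 5.78% to 11.7%.

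The other genes of the pathway were taken from a list ordered by role, which gave 76 rows of the table besides the 9 genes. Of these, 8 were listed at 0 and 63 had a mean of at least 10. Among the 63, 14 exceeded 2-fold towards the limbus and 5 towards the cornea, beside 18.0% and 8.88% of all genes. The counting intervals put 35 above and 22 below equality, beside 36.0% and 40.5% of all genes, and the median ratio was 0.21. The read numbers of the 63 genes ranged widely, so the shallow ones have wide intervals.

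Of 21 other claudins, 7 were listed at 0 (Cldn6, Cldn9, Cldn13, Cldn14, Cldn16, Cldn18 and Cldn24) and 9 had a mean of at least 10, with 5 past 2-fold towards the limbus and 2 towards the cornea, beside 18.0% and 8.88% of all genes. Cldn3 had 821 corneal and 2216 limbal reads, a ratio of 1.53 (1.41 to 1.65), close to that of Cldn1. Cldn10, an ion-channel claudin, had 166 and 430 reads, a ratio of 1.47 (1.21 to 1.74). Cldn5 had 4 and 439 reads (6.87, 5.51 to 8.76), Cldn19, a claudin of kidney tubules and retina, 1 and 65 reads (6.12, 3.59 to 11.44), and the cation-pore claudin Cldn2 3 and 43 reads (3.94, 2.29 to 6.27). Each of these 3 genes was nearly without reads in the cornea. Higher in the cornea were Cldn17, with 332 corneal and 53 limbal reads (-2.55, -3.00 to -2.13), and Cldn12, with 620 and 233 reads (-1.32, -1.54 to -1.10). The row named Cldn25 (2732 and 1918 reads, -0.41) carries a symbol that is an older name of Cldnd1 and also names a pseudogene, so its identity is uncertain.

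The other MARVEL proteins, relatives of occludin, differed little. Marveld2 (tricellulin), which seals the corners where 3 cells meet, had 874 corneal and 871 limbal reads, a ratio of 0.09 (-0.05 to 0.23), and Marveld3 had 899 and 965, a ratio of 0.20 (0.07 to 0.33). The angulins, which recruit tricellulin to those corners, were higher in the limbus in 3 of 3 cases, beside 47.8% of all genes. The intervals of all 3 lay above 0, beside 36.0% of all genes. Lsr had 1807 and 2349 reads (0.47, 0.39 to 0.56), Ildr1 2082 and 2193 (0.17, 0.08 to 0.26), and the shallow Ildr2 3 and 35 (3.64, 1.97 to 5.99).

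Of 9 further scaffolds, 6 were higher in the cornea beyond counting error and 3 in the limbus, beside 40.5% and 36.0% of all genes. Cgnl1 (paracingulin), the relative of cingulin that is also found at adherens junctions, had 4886 corneal and 7531 limbal reads and a ratio of 0.72 (0.67 to 0.77), opposite to that of Cgn. Its level per kilobase was 1.19 times that of Cgn in the cornea and 2.68 times in the limbus. Magi2, a scaffold with several PDZ domains, had 120 and 39 reads (-1.53, -2.09 to -0.99). It was the 1 scaffold at least 2-fold apart, beside 18.0% of all genes towards the limbus and 8.88% towards the cornea. Of 8 polarity genes, whose products place the junction along the cell, 5 lay beyond counting error towards the cornea and 1 towards the limbus. The shares of all genes were 40.5% and 36.0%. Of the polarity genes 0 were 2-fold apart, beside the 18.0% and 8.88% of all genes given above. Prkci, the atypical kinase of the Par complex, had 7909 and 4209 reads (-0.81, -0.87 to -0.76), and Pard3 had 4543 and 3342 (-0.35, -0.41 to -0.28).

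Immunoglobulin-type adhesion genes ranged from -1.17 to 8.06. Cxadr, the coxsackievirus and adenovirus receptor of epithelial junctions, had 4426 corneal and 1841 limbal reads, a ratio of -1.17 (-1.25 to -1.09). Jam3 had 26 and 160 reads (2.72, 2.11 to 3.37), Clmp 91 and 192 (1.17, 0.81 to 1.55), and Esam, an adhesion molecule of endothelial cells and platelets, 1 and 250 (8.06, 5.57 to 13.37). F11r, at 0.03, lay between Cxadr and these. Igsf5 was listed at 0.

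Among 9 plaque and signalling genes, 2 were at least 2-fold higher in the limbus (18.0% of all genes were), namely Amot (29 and 114 reads, 2.07, 1.47 to 2.71), an angiostatin-binding protein, and Tjap1 (334 and 708 reads, 1.18, 0.99 to 1.37). Afdn (afadin), which links nectins to actin and binds ZO-1, had 9017 and 5331 reads and a ratio of -0.66 (-0.71 to -0.61), near that of Tjp1. Genes of proteins that stabilise or cleave claudins lay close to equality, with 0 of 6 at least 2-fold apart, beside 18.0% of all genes towards the limbus and 8.88% towards the cornea. The adhesion protein Epcam, with 2198 and 1560 reads, had a ratio of -0.40 (-0.49 to -0.30), opposite in sign to its partner Cldn7. The protease inhibitor Spint2 had 11778 and 12893 reads, a ratio of 0.23 (0.19 to 0.26).

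Of 12 transcription factors known to act on epithelial junction genes, 3 were past 2-fold towards the limbus and 1 towards the cornea, beside 18.0% and 8.88% of all genes. Klf4, an activator of epithelial barrier genes, had 26458 corneal and 10248 limbal reads (-1.27, -1.31 to -1.24). Elf3, an epithelial factor of the Ets family, had 20108 and 26422 reads (0.49, 0.46 to 0.52). The E-box repressors Snai1 (22 and 112 reads, 2.44, 1.77 to 3.17), Zeb1 (97 and 293, 1.69, 1.35 to 2.04) and Zeb2 (43 and 251, 2.64, 2.17 to 3.14) were higher in the limbus at low levels. Their relative Snai2, with 483 and 372 reads, had a ratio of -0.28 (-0.48 to -0.08). Grainyhead factors went in both directions, at -0.19 for Grhl1, -0.54 for Grhl2 and 0.35 for Grhl3.

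**Figure D5:**
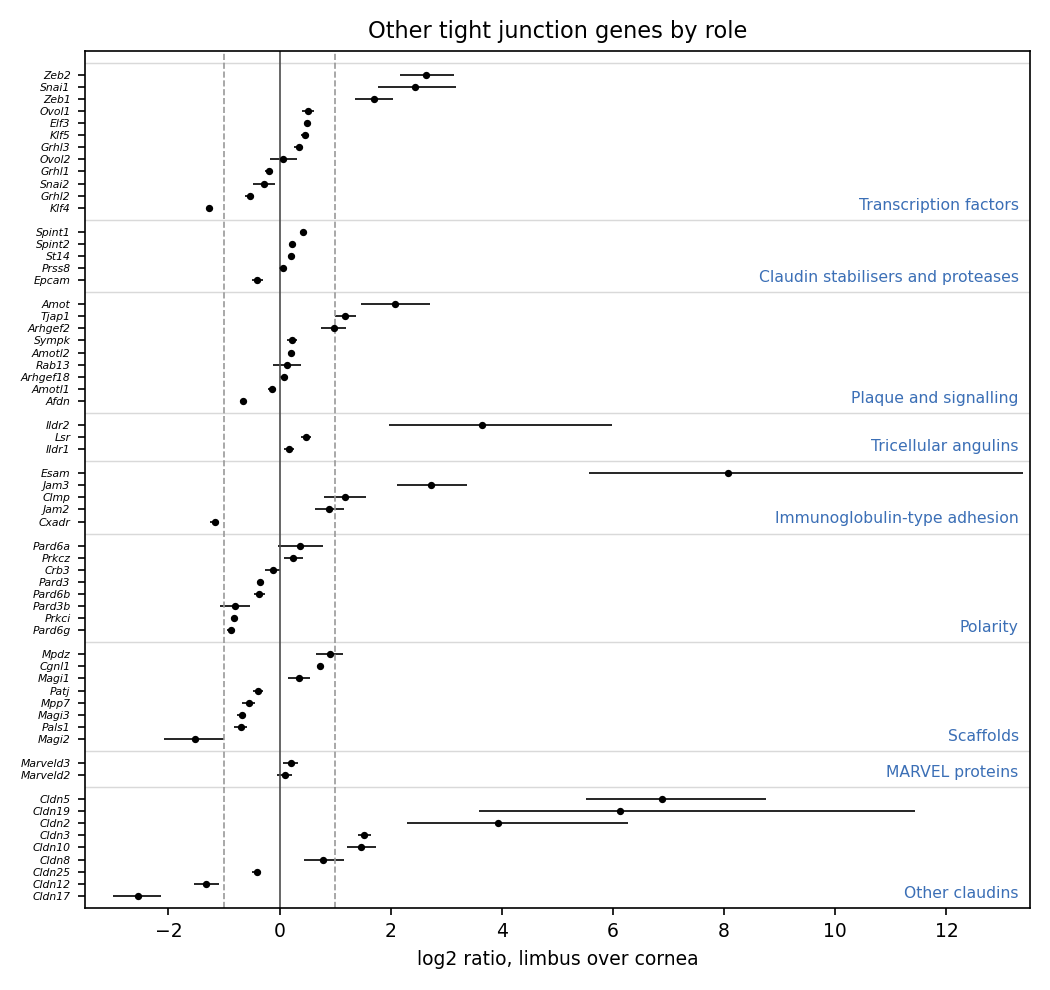
Log2 ratio of limbus over cornea for other tight junction genes with a mean of at least 10, ordered by role, with exact 95% intervals of counting error, 1 library per tissue, dashed lines at 2-fold. The wide intervals on the right belong to genes with 1 to 4 corneal reads.

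The cell type markers also differed between the tissues. Of 12 genes of the corneal and limbal epithelium, 10 were higher in the cornea, among them the corneal keratin Krt12 (1137735 and 233324 reads), and 2 in the limbus, the basal keratins Krt15 (37738 and 353826) and Krt14 (9952 and 53574). The summed level of this list was 1.72-fold higher in the cornea and its median ratio was -0.60. Cdh1, the E-cadherin of epithelia, had 10556 and 9038 reads, a ratio of -0.13. Against this median, 8 of the 9 junction genes lay higher, from Cgn by 0.15 to Cldn1 by 2.20, and Tjp1 lay at it, where 79.6% of all 13932 genes lay higher. The list mixes corneal genes (Krt12 at -2.19, Aldh3a1 at -1.22) with basal keratins (Krt15 at 3.32, Krt14 at 2.52), so its median depends on the members chosen. Against Cdh1 alone, Ocln (-0.28), Cgn (-0.46) and Tjp1 (-0.61) lay lower and the other junction genes higher.

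Markers of conjunctival or simple epithelium were higher in the limbus for 7 of 7 genes with a mean of at least 10, and their summed level was 3.51-fold higher, with Krt13 at 35544 and 120736 reads and Krt4 at 2138 and 71498. The goblet-cell mucin Muc5ac had 1 read in each library. Blood endothelium markers were higher in the limbus for 6 of 6 genes and 12.5-fold in sum, with Pecam1 at 6 and 831 reads and Cdh5 at 3 and 421, beside the ratios of 6.87 for Cldn5 and 8.06 for Esam. Markers of skeletal muscle (4 of 4, 316-fold), smooth muscle and pericytes (5 of 5, 28.1-fold), ciliary and pigment epithelium (4 of 4, 6.90-fold), leukocytes (5 of 5, 5.57-fold), melanocytes (5 of 5, 5.38-fold), corneal endothelium (4 of 4, 2.80-fold) and Schwann cells (4 of 4, 1.64-fold) were also higher in the limbus. Keratocyte and fibroblast markers were divided (4 limbus, 3 cornea). Among these 3, Lum at -0.01 (-0.06 to 0.03) did not differ from 0 beyond counting error. The part of these cell types in the ratios of the junction genes was not tested.

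The direction of Ocln and Cgn, and the corneal call of Tjp1, depended on the scaling. With the libraries scaled to the median of the epithelial markers, Ocln stood at 0.32 and Cgn at 0.15, and the median of the polarity genes (-0.35) is then above 0 as well. The percentage of all genes higher in the limbus is then 79.6%, against 47.8% with the deposited size factors and 59.8% with total reads, which add 0.21. The direction of the claudins and Tjp3 was the same under each of these scalings.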

How the data were processed

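The authors made libraries of corneal button and limbal rim RNA with a stranded kit (QIAseq) and mapped them in CLC Genomics Workbench, with GRCm38 (mm10) as the genome. The deposited table holds, per gene, 1 mean of normalized reads over both tissues (unit: signal), a log2 fold change and the standard error of it, and a p-value, raw and adjusted, all computed by the authors. The log2 fold changes and p-values are neither printed nor compared here. Of 40904 rows, 23420 carry a gene name and 17484 do not and were left out.

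Whole reads of both libraries were recovered from the mean, which is a weighted sum of 2 whole numbers: 109 corneal reads are worth 102 limbal reads. Where several pairs of numbers give the mean (11299 of 17442 genes above 0), the pair that met the authors' log2 fold change and standard error was taken. Of these genes 17436 met both values within 1e-05, and 10 had several such pairs, none of them a gene described here. Each of the 9 genes had 1 such pair. For that limit the dispersion, the model's term for variation beyond counting error, was fitted to each pair. With the dispersion taken instead from a smooth fit over genes with 1 such pair, the next best pair missed by at least 271 times as much. On simulated data for limbus against cornea, 14737 of 14747 pairs (99.93%) were recovered, and 199 of 200 genes made to differ had the right direction.

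Ratios use the size factors of the deposited table. Intervals of ratios come from the limbal part of the reads (exact Clopper-Pearson, 95%), differences between ratios have conditional exact 95% intervals of the odds ratio, and levels have exact Poisson intervals, all computed with scipy 1.17.1 in Python 3.11.15. Reads are not independent molecules, so all cover counting error only. A library with 0 reads was set to 3 reads for a bound. Calls are a fold of 2, or an interval on 1 side of 0, over the 13932 genes whose mean reaches 10. Lengths and positions come from GENCODE M21 (GRCm38), and promoters from RefSeq. Named are all 9 genes and, from the pathway list, the genes with most reads per role and those at least 2-fold apart. A pair of genes of the pathway list is counted but not reported here by name. Ybx3 was not found under that symbol, and the row Cldn26 carries an older name of Tmem114. Both uncertain claudin symbols stay out of the family make-up. The 9 genes, the pathway list and the marker lists were chosen with earlier results of these data known. Alternatives were other scalings, a pseudocount of 1, a fold of 1.5, other minimum means, the next best pair and the longest transcript as length.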

Additional observations from a re-analysis of the deposited data

How the results depend on the processing

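With total reads as scaling the median ratio of the 9 genes was 0.46, with the epithelial marker list 0.86, and with the next best pair of read numbers, an alternative chosen for the median after seeing the data, 0.18 (0.26 as reported). That pair would also put Cldn1 at 2.20 and F11r at -0.0016. With the dispersion from the smooth fit, it misses the deposited values by at least 271 times as much as the pair used. The epithelial scaling gave 3 genes at least 2-fold higher in the limbus in place of 1, 8 in place of 5 higher there beyond counting error, 0 in place of 3 higher in the cornea, and reversed Ocln (0.32) and Cgn (0.15). Of all 13932 genes, 3984 were at least 2-fold higher in the limbus under that scaling and 9662 were higher there beyond counting error, with 367 and 1838 for the cornea. It gave 24 in place of 14 other tight junction genes at least 2-fold higher in the limbus, and 1 in place of 5 in the cornea. A fold of 1.5 gave 1 gene in place of 0 for the cornea, beside 21.1% of all genes. With the longest transcript as length, 5 of 9 genes had the same rank in the cornea. The shifts under the scalings follow from adding 1 constant to every ratio. Trimmed means of M-values and the pseudocount kept each direction, but F11r was higher in the limbus beyond counting error with trimmed means (0.05) and with total reads (0.23), which makes that count 6. With total reads Ocln (-0.08) was no longer beyond counting error, which leaves 2 genes higher in the cornea.

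No paired analysis was possible because the deposited table holds no values per numbered sample, and leaving out each replicate was not run for the same reason. With 1 library per tissue the depth limits only the counting error, and how much pools of other eyes would differ is unknown here. Cldn2, Cldn19, Ildr2 and Esam have 1 to 3 corneal reads, so the sizes of their ratios are loose.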
